A study of Mus musculus with 42 samples.

Results

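The data cover 8 mucin genes, chosen by name: Muc1, Muc2, Muc3, Muc4, Muc5b, Muc13, Muc19 and Muc20, out of 19232 gene names over 12 expression tables. Muc2, Muc5b and Muc19 encode gel-forming mucins, which are secreted and build the mucus layer. Muc1, Muc3, Muc4, Muc13 and Muc20 encode membrane mucins, which stay anchored on the apical cell surface. In the colon, Muc2 is the main component of mucus and is made by goblet cells, where its protein is joined into polymers, heavily O-glycosylated and stored in granules until release. Membrane mucins form part of the glycocalyx of epithelial cells, and several carry EGF-like or signalling segments next to the membrane.

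The study asked how loss of BMP signalling in stromal cells, and the cytokines IL-1 and IL-17A, change the colonic epithelium. RNA sequencing gave 42 mouse libraries in 12 tables. Goblet cells sorted by a Muc2-mCherry reporter came from adult mice of both sexes carrying Gli1-CreERT2, the tamoxifen-inducible recombinase driven by Gli1, either alone (GWTM2), with loxP-flanked Smad4 (GS4M2) or with loxP-flanked Alk3, the gene named Bmpr1a in the tables (GA3M2). Stromal cells were sorted by tdTomato, which the same Cre switches on, from the corresponding control (GWTT), Smad4 (GS4T) and Alk3 (GA3T) mice. Both sorts used proximal and distal colon 30 days after tamoxifen, with 2 libraries per group. The Cre is driven in Gli1+ stromal cells, and goblet cells are not its intended target. Wild-type colonic organoids, cultured in a medium with Wnt3a and a Wnt-activating inhibitor, received no cytokine (Control), IL-1α with IL-1β (IL1) or IL-17A (IL17A), each cytokine at 10 nM, for 12 h or 72 h, with 3 libraries per group.

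CPM denotes reads scaled to the library's total on named genes. Depth was 15647603 to 20783127 reads on named genes in goblet cells, 14222902 to 23686940 in stromal cells and 14815170 to 17665812 in organoids. Whether a library came from 1 mouse or a pool is not stated, so every p-value measures the spread between libraries only, which may be technical. The columns Control-12h 2 and Control-72h 1, and Control-12h 4 and Control-72h 4, held the same reads, which leaves 16 distinct organoid libraries among 18. A further 3 pairs within a group (Control-72h 2 and 4, IL1-12h 3 and 4, and IL17A-12h 3 and 4) were far closer than other replicates, with a chi-square per degree of freedom of 3.03 to 3.32, though beyond sampling noise. Control-72h 2 was similarly close to Control-12h 4 (3.44). Each Control-72h library thus matched or closely resembled a Control-12h library. The GS4 and GA3 comparisons share their control libraries, as do the IL1 and IL17A comparisons. By Xist and genes of the Y chromosome, replicate 1 of GWTM2 in either segment was female, and the other goblet libraries were male. Among organoids at 72 h, Control 2 and 4 and IL1 2 were female, and Control 1, IL1 1 and 3 and all IL17A libraries were male. At 12 h replicates 3 and 4 were female and replicates 1 and 2 male. Gli1 itself was at 1.98 CPM or less in GS4T-Proximal 2 and GA3T-Proximal 2, against 38.0 to 99.6 CPM in the other stromal libraries. Smad4 was lower in GS4T (41.5 to 70.1 CPM) than in GWTT (94.8 to 109 CPM), and Bmpr1a was lower in GA3T (105 to 125 CPM) than in GWTT (166 to 189 CPM). In goblet sorts Bmpr1a was at 69.7 to 86.2 CPM in GA3M2, 81.6 to 93.8 in GS4M2 and 93.7 to 118 in GWTM2. Smad4 there was at 108 to 154 CPM in GS4M2 and 98.2 to 159 in GWTM2. Recombination in goblet cells was not tested. The summed level of 10 epithelial markers was 12990 to 20604 CPM in the goblet sorts, where 10 stromal markers, of which 2 to 7 were listed, summed to at most 33.3 CPM.

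In the GENCODE M21 annotation of GRCm38 (mm10), the genes lie on 5 chromosomes. Muc2 (ENSMUSG00000025515.15) occupies chr7:141690340-141754693 on the plus strand, and Muc5b begins 84.4 kb further on at chr7:141839070-141873084. Muc4 (chr16:32735886-32782391, plus strand) and Muc20 (chr16:32777419-32797435, minus strand) overlap tail to tail, and the exon bases they share are 15.6% of the Muc20 exons and 5.33% of the Muc4 exons. Since the strand setting of the counting is not given in the sources used here, reads in that overlap cannot be told apart, and Muc20, whose level was far below that of Muc4, is uncertain for this reason. Muc13 lies on the same chromosome at chr16:33794037-33819934, Muc1 at chr3:89229057-89233381, Muc3 at chr5:137134922-137149322 and Muc19 at chr15:91838326-91934555. Muc3 has the related gene Muc3a 59.5 kb away, and reads shared by near-identical parts of both genes could have been split between them.

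The promoters of the 3 mucins with called differences in goblet cells or organoids are shown because Muc2 fell in one knockout and Muc1 and Muc13 moved together under cytokines. The windows, from RefSeq on GRCm38.p6, run from 250 bases before to 50 bases after the annotated start, and 6 of the 8 genes had an entry. Capitals mark matches, on either strand, to TGANTCA, TTCNNNGAA or TATAAA, which are the letters of AP-1 sites, STAT sites and TATA boxes.
Muc2, chr7:141690090-141690389, plus strand: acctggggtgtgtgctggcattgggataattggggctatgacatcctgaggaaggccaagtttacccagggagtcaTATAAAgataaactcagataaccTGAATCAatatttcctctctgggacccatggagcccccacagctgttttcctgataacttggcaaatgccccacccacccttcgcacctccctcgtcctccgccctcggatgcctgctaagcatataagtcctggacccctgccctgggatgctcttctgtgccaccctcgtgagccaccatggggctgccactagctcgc
Muc1, chr3:89228806-89229105, plus strand: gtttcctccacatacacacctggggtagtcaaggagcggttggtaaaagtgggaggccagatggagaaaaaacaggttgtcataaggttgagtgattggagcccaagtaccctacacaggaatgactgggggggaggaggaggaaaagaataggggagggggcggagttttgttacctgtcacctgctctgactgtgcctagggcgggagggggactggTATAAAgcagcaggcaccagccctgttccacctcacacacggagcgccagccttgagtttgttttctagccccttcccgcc
Muc13, chr16:33793787-33794086, plus strand: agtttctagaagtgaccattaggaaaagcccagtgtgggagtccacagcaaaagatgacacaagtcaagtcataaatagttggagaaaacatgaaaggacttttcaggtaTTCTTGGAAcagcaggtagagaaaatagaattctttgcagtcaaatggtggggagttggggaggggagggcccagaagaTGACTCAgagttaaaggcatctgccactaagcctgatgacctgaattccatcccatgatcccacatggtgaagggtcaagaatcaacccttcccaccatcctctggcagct

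The Muc2 window held TGAATCA at -151 and TATAAA at -174, the Muc1 window held TATAAA at -31, and the Muc13 window held TTCTTGGAA at -140 and TGACTCA at -61, each position being that of the first base before the start. A second Muc13 start, chr16:33794239-33794538, had TGAGTCA at -179. Among 32851 promoter windows of this length, 7.81% held TGANTCA, 8.3% held TTCNNNGAA and 13.6% held TATAAA. The Smad letters GTCTAGAC (0.213% of windows) and GGCGCC (11.9%) and the NF-kB consensus (5.8%) did not occur in any of these windows. The matches describe letters in a window and no measured binding.

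Levels between genes were compared as CPM per kilobase (kb) of exons, with lengths from GENCODE M21. The annotation used for counting is not given in the sources used here. The Muc3 model used reaches to chr5:137149322 on the minus strand, whereas the RefSeq window of its start lies at chr5:137165997-137166296. The length of Muc3, its level beside other genes and shares that include it are therefore uncertain. In control goblet cells of the proximal colon, Muc2 led with a mean of 1563 CPM per kb (n = 2), followed by Muc13 (462), Muc3 (171), Muc4 (35.7), Muc1 (1.06) and Muc20 (0.671). Muc19 (0.0215) and Muc5b (0.0147) were close to the floor: Muc5b had 5 and 3 reads and Muc19 4 and 3 reads in these libraries, where a count of 0 would allow up to 3 reads, counting error only. Muc2, Muc13, Muc3 and Muc4 did not overlap with their neighbours in this order. In distal control goblet cells Muc2 (610), Muc13 (593) and Muc3 (378) overlapped in range, with Muc4 at 84.5, Muc1 at 6.01 and Muc20 at 1.37 CPM per kb. In untreated organoids at 12 h, Muc2 (406), Muc3 (372) and Muc13 (276) were again the 3 highest, and the values of Muc2 and Muc3 overlapped. Muc5b and Muc19 have no value in the organoid and stromal tables as used here, and both were listed together only in the table of proximal GA3M2 and GWTM2 cells.

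**Figure D1:**
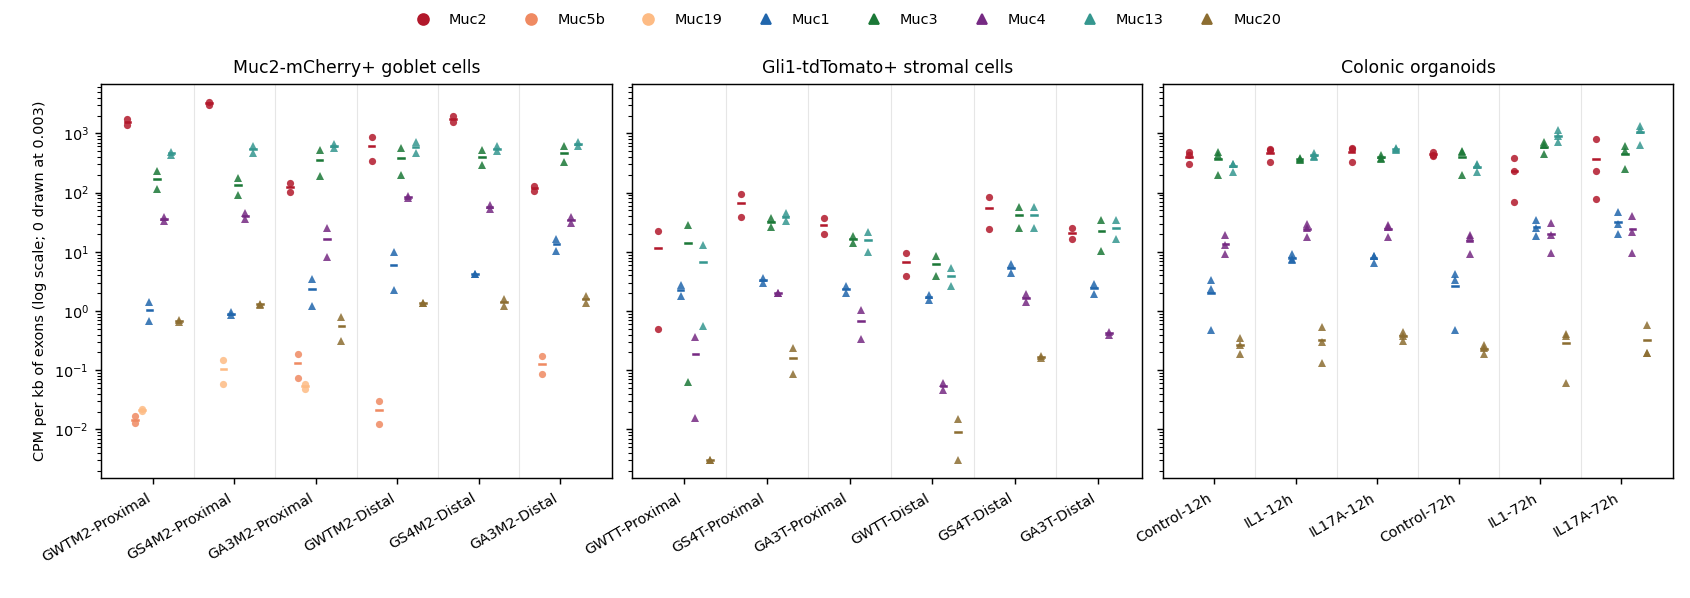
Levels of the 8 mucins in every group, in CPM per kb of exons on a log scale; points are libraries, bars are group means, circles are gel-forming and triangles membrane mucins, and a value of 0 is drawn at 0.003. In goblet libraries Muc2 spans from 103 CPM per kb in a GA3M2 library to 3427 CPM per kb in a GS4M2 library, whereas the group means of Muc13 there lie between 462 and 657.

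The clearest mucin difference in goblet cells was in Muc2. In proximal GA3M2 cells its normalized counts were 18753 and 14042, against 179572 and 224217 in GWTM2, so the groups were far apart. Muc2 fell by 3.63 on the log2 scale (SE 0.34, a 12.4-fold difference, adjusted p = 0.0464, limma), and it was the only one of 7 members tested that was called. The background was 0.0899% of 13346 genes called. Calls required an adjusted p (Benjamini-Hochberg) below 0.05 together with a log2 difference of 1 or more in either direction. Where groups are said not to overlap, the share of all genes without overlap was not counted. Of the members, the edgeR test called Muc2 only, and DESeq2 called Muc2 and Muc5b, among 14 and 431 genes called in all. The call was lost, at an unchanged direction, without GWTM2-Proximal 2 (-3.47) and without GA3M2-Proximal 2 (-3.42). Within the male libraries, without GWTM2-Proximal 1, the log2 difference was -3.79.

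In distal GA3M2 cells Muc2 was at 16015 and 12294 normalized counts against 41156 and 109532 in GWTM2, again without overlap, but the control libraries differed from each other by more than the knockout libraries did. The log2 difference was -2.26 (SE 0.47, adjusted p = 0.306, limma), and 0 of 7 members were called, as were 0% of 13082 genes. At an unadjusted p under 0.05 the count was 3 members (Muc2, Muc4 and Muc5b), edgeR called 0 and DESeq2 called Muc2 and Muc4. Over all 13082 genes these counts were 539, 0 and 240. The Muc2 difference was -2.96 without GWTM2-Distal 1 and -1.55 without GWTM2-Distal 2. With a lone control the spread comes from the knockout pair, so only effect sizes are given. Without GWTM2-Distal 1 the differences were 2.43 for Muc1 and -1.27 for Muc4, and without GWTM2-Distal 2 that of Muc4 was -1.38.

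Muc2 differed the other way in GS4M2 cells, where the values were higher in both segments. Proximal counts were 401714 and 356310 against 168657 and 212088 in GWTM2, a log2 difference of 1.00 (SE 0.35, adjusted p = 0.237, limma). Distal counts were 238217 and 194631 against 43021 and 113478, a log2 difference of 1.62 (SE 0.50, adjusted p = 0.430, limma). The groups did not overlap in either segment, and neither difference passed the test. For the proximal table, a heading elsewhere in the study's materials names the GS4M2 and GWTM2 columns the other way round. The deposited names were used, and the columns named GWTM2 held the same reads as the GWTM2 columns of the proximal GA3M2 table (0 of 13686 genes differed). Under the other naming, every proximal goblet difference that involves GS4M2 or GWTM2 would turn or change its value. That would include the Muc2 call in proximal GA3M2 cells, whose control columns are these same reads. In both segments 0 of 6 members tested were called, with backgrounds of 0.325% of 13246 genes and 0% of 13078 genes. Before adjustment for the number of genes, 1 member (Muc2) passed p 0.05 and the fold threshold in each segment, edgeR called 0 members in both, and DESeq2 called 0 proximally and Muc2 distally. Over all genes the unadjusted counts were 567 proximally and 353 distally, and DESeq2 called 270 and 148. Without GWTM2-Distal 2 the distal difference was 2.32.

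Set directly against each other, the knockouts differed in Muc2. GS4M2 exceeded GA3M2 by 4.71 on the log2 scale proximally (SE 0.40, adjusted p = 0.00473) and by 3.91 distally (SE 0.40, adjusted p = 0.00383, limma on log2 CPM), with all 4 GS4M2 libraries at 11164 to 24426 CPM and all 4 GA3M2 libraries at 733 to 1027 CPM. Muc2 was the only called member of 6 in each segment, over backgrounds of 0.475% and 0.566% of 13065 genes. The proximal call was lost without GA3M2-Proximal 2 (4.47, adjusted p = 0.0544), and the distal call without GA3M2-Distal 2 (3.75, adjusted p = 0.0583) or GS4M2-Distal 1 (3.74, adjusted p = 0.0611, limma). Muc4 was higher in proximal GS4M2 than GA3M2 cells by 1.47 without passing (adjusted p = 0.0869, limma). Without GA3M2-Proximal 1 the difference was 2.28 for Muc4 and 1.98 for Muc20. In the direct comparison Muc13 differed by -0.20 (95% interval -0.74 to 0.35) proximally and -0.26 (-0.81 to 0.29) distally.

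The other gel-forming mucins were low, and their values in GA3M2 cells were above those of the control. Muc5b, a gel-forming mucin best known from airway and salivary glands, had 52.3 and 21.2 normalized counts in proximal GA3M2 cells against 4.57 and 3.42 in GWTM2. In distal cells it had 22.5 and 42.2 against 7.68 and 3.28. The GA3M2 libraries were above the controls in both segments, by 2.79 (SE 0.68, adjusted p = 0.208) and 2.39 on the log2 scale (SE 0.68, adjusted p = 0.340), so neither passed the test (limma). The whole reads were 23 to 52 against 3 to 8, and Muc5b has no value in the GS4M2 tables as used here. Muc19, annotated as a processed transcript, was under the filter of a mean of 10 and was not tested. Its normalized counts were 8.05 and 10.1 in proximal GA3M2 against 3.66 and 3.42 in GWTM2, and 22.1 and 9.16 in proximal GS4M2 against 3.43 and 3.24, the control values being at 3 and 4 reads.

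None of the membrane mucins was called in a goblet comparison with the control. Muc4, a large membrane mucin that can bind ErbB2, was lower in GA3M2 cells. Proximal counts were 5378 and 1849 against 8174 and 7039 (log2 difference -1.27, SE 0.48, adjusted p = 0.302), and distal counts were 7897 and 5902 against 17717 and 16451 (-1.32, SE 0.19, adjusted p = 0.232, limma). Without GA3M2-Proximal 1 the proximal difference was -2.04. In distal GS4M2 cells Muc4 was at 12182 and 10676 against 18519 and 17044, a log2 difference of -0.64 (SE 0.14, adjusted p = 0.372, limma). In each of these 3 comparisons the groups did not overlap, whereas in proximal GS4M2 cells they did (6880 and 8842 against 7677 and 6658). The share of all genes without overlap was not counted.

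Muc1, the membrane mucin with the short signalling tail, was at 150 and 55.3 normalized counts in proximal GA3M2 cells against 61.2 and 28.5, and at 672 and 390 in distal cells against 387 and 94.0. The log2 differences of 1.10 and 1.42 (SE 0.60 and 0.68) did not pass (adjusted p = 0.407 and 0.483, limma). Muc3, a membrane mucin of the brush border, was at 6719 and 19814 in proximal GA3M2 cells against 3971 and 8089 (1.03, SE 0.57, adjusted p = 0.413, limma), and these groups overlapped. Muc13, the most abundant membrane mucin of goblet cells, ranged from 1313 to 2185 CPM over all 12 libraries, and its differences from the control lay between -0.14 and 0.47 on the log2 scale. Muc20, the lowest membrane mucin, was at 86.2 and 87.5 in proximal GS4M2 cells against 48.1 and 44.3 (0.90, SE 0.25, adjusted p = 0.181, limma), and its groups overlapped in the other 3 comparisons.

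**Figure D2:**
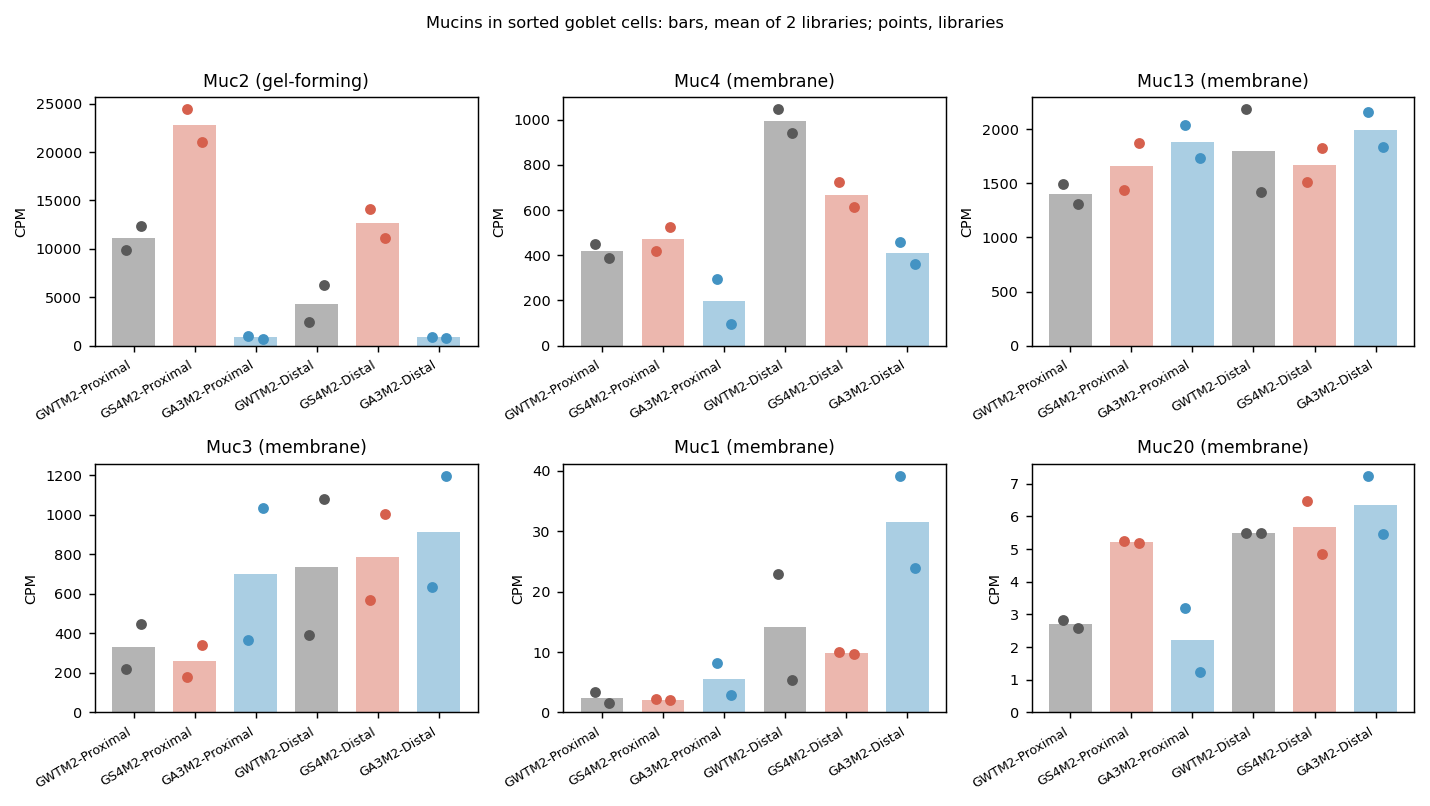
Muc2, Muc4, Muc13, Muc3, Muc1 and Muc20 in sorted goblet cells, in CPM; bars are means of 2 libraries, points are libraries, and grey, red and blue stand for GWTM2, GS4M2 and GA3M2. Muc2 is highest in GS4M2 and lowest in GA3M2 in both segments, while the Muc13 values of all groups lie between 1313 and 2185 CPM.

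The balance of gel-forming and membrane mucins moved with Muc2. As a share of the summed CPM per kb of Muc1, Muc2, Muc3, Muc4 and Muc13, Muc2 made up 68.3% and 71.4% in the 2 proximal GWTM2 libraries, 85.1% and 77.9% in GS4M2 and 13.9% and 8.47% in GA3M2. In distal cells the shares were 25.1% and 44.4% in GWTM2, 69.9% and 57.1% in GS4M2 and 10.7% and 7.72% in GA3M2. The order GS4M2, GWTM2, GA3M2 held in both segments with no overlap. With 2 libraries a group an exact permutation test cannot go below p = 0.333, so no test was made on the shares. The shares depend on the exon lengths used, of which that of Muc3 is uncertain. The summed membrane mucins were 890 and 1111 CPM per kb in proximal GA3M2 cells against 644 and 696 in GWTM2, and 1092 and 1261 in distal GA3M2 cells against 1019 and 1104. Over the 5 membrane members the median log2 difference was 0.47 in proximal and 0.15 in distal GA3M2 cells, and 0.13 and -0.14 in GS4M2 cells, with the median of all genes tested at 0.00 in each.

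The summed level of other goblet markers was lower along with Muc2 in GA3M2 cells but did not separate from GWTM2 in GS4M2 cells. Abundant genes weigh most in such a sum, and the direction of single markers is not given here. The 12 goblet markers that are not mucins, all of them detected, summed to 12530 to 16326 CPM in proximal GA3M2 cells against 23647 to 23848 in GWTM2, and to 16167 to 26392 against 36382 to 59686 in distal cells. In GS4M2 they summed to 19730 to 25086 proximally and 31439 to 41564 distally, overlapping with GWTM2 in both segments. Among 9 macrophage markers, of which 7 or 8 were listed, the sums were 111 to 129 CPM in proximal GA3M2 cells against 42.2 to 62.6 in GWTM2, without overlap, and 121 to 128 CPM against 53.1 to 150 in distal cells, with overlap. None of them was at 0 in GA3M2, against 3 in proximal and 1 to 3 in distal GWTM2 libraries. The 9 absorptive colonocyte markers summed to 1660 to 3767 CPM in proximal GA3M2 cells and 1219 to 2036 CPM in proximal GS4M2 cells against 3148 to 6847 in GWTM2, so they were lower without overlap in GS4M2. In distal cells their sums were 766 to 1741 CPM in GA3M2 and 964 to 1599 CPM in GS4M2 against 524 to 2727 in GWTM2. The 6 stem and transit cell markers summed to 216 to 421 CPM in proximal GA3M2 cells against 479 to 548 in GWTM2, and to 524 to 530 against 643 to 784 in distal cells, with no overlap in either segment. In GS4M2 they summed to 440 to 489 CPM proximally, overlapping with GWTM2, and to 856 to 980 CPM distally, above GWTM2. The part of cell composition in the Muc2 difference was not tested, and in sorted bulk samples fewer mature goblet cells and less RNA per cell cannot be told apart.

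The other lists were chosen with earlier results of these data known and describe only these libraries. Among 31 genes of mucus partners and mucin assembly, 0 were called in GA3M2 cells in either segment or in distal GS4M2 cells, and 1 was called in proximal GS4M2 cells, Tgm2, a transglutaminase (1.503, SE 0.14, adjusted p = 0.0258, limma). The largest GA3M2 value was in Clca1, a secreted metalloprotease that cleaves Muc2, at -4.73 proximally (adjusted p = 0.0722) and -3.94 distally (adjusted p = 0.276, limma). The list's median was -0.04 and -0.11 in GA3M2 and -0.01 and -0.25 in GS4M2 cells. Of 10 membrane mucin partners tested, such as the ErbB receptors, 0 were called in any goblet comparison with the control. Of 5 other mucins tested, 0 were called there. In the direct comparison of distal knockouts, Muc3a was lower in GS4M2 than in GA3M2 (-1.51, SE 0.13, adjusted p = 0.00162, limma), as was Gcnt3, an enzyme of O-glycan branching (-1.15, adjusted p = 0.0494, limma).

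Between control goblet cells of the proximal and distal colon, the mean of Muc2 was higher and those of the 5 membrane mucins lower in the proximal colon, and none passed the test. Muc2 was at 9908 and 12373 CPM in proximal and 2429 and 6270 CPM in distal GWTM2 cells, a log2 difference of 1.504 (SE 0.40, adjusted p = 0.113, limma). Muc1 was at 3.38 and 1.57 CPM against 22.8 and 5.38 (-2.22, SE 0.66, adjusted p = 0.155), and Muc4 at 451 and 388 CPM against 1046 and 942 (-1.25, SE 0.40, adjusted p = 0.193, limma). Muc20 was at 2.82 and 2.58 CPM against 5.496 and 5.504 (-0.9998, SE 0.38, adjusted p = 0.292, limma). None of these 4 pairs of groups overlapped, a description for which the share over all genes was not counted. Of 6 members 0 passed the limma test, over a background of 1.53% of 13065 genes. Unadjusted p were under 0.05 for these 4 members, edgeR called 0 members, and DESeq2 called Muc1, Muc2 and Muc4. Over all 13065 genes, 697 passed unadjusted p with the fold threshold, and DESeq2 called 417. Without GWTM2-Distal 2 the differences were -3.25 for Muc1 and 2.19 for Muc2. In the mucin assembly list 3 genes were higher and 3 lower between the segments, B3gnt6 (1.43), Gcnt3 (1.17) and Gcnt4 (1.77) being higher and Gcnt1 (-3.15), St3gal6 (-1.55) and Tgm3 (-6.99) lower in the proximal colon, and all but the transglutaminase Tgm3 are glycosyltransferases.

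The knockout effects on the mucins were not shown to differ between segments. The interaction, which is the proximal minus the distal log2 difference, was -1.45 for Muc2 in GA3M2 (95% interval -2.73 to -0.18, adjusted p = 0.998) and -0.65 in GS4M2 (-1.93 to 0.62, adjusted p = 0.999, limma). No member of 6 was called in either, over backgrounds of 0.00765% and 0.0153% of 13065 genes, and edgeR and DESeq2 called 0 members. Muc2 in GA3M2 was the only member with an unadjusted p under 0.05.

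Stromal cells sorted by tdTomato had levels of Muc2, Muc3, Muc4 and Muc13 below those of goblet cells in the group means, Muc1 being the exception at 3.64 to 14.8 CPM against 1.57 to 39.1 CPM, and the group means of Muc1, Muc2, Muc3, Muc4 and Muc13 were highest in GS4T in both segments. In distal GS4T cells all 5 members tested rose, against a background of 14.0% of 15262 genes called. Muc4 was at 276 and 379 normalized counts against 8.80 and 11.6 in GWTT (4.87, SE 0.37, adjusted p = 0.00156, limma). Muc13 was at 1252 and 2933 against 133 and 260 (3.36, SE 0.47, adjusted p = 0.00743), and Muc2 at 2843 and 10001 against 464 and 1100 (2.90, SE 0.65, adjusted p = 0.0282, limma). None of these groups overlapped, and edgeR and DESeq2 also called all 5, among 2042 and 2404 genes called in all. Muc3 (2.75) and Muc1 (1.63) were the other members called. Muc20, under the filter, had 10.6 and 11.7 normalized counts against 0.978 and 0.

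Of the distal GS4T calls, those of Muc2, Muc1 and Muc3 depended on single libraries. Muc4 and Muc13 were called with each library left out in turn. Muc2 was lost without GWTT-Distal 1 (2.28, adjusted p = 0.137), GWTT-Distal 2 (3.52, adjusted p = 0.0501) or GS4T-Distal 2 (1.99, adjusted p = 0.0864, limma). Muc1 was lost without GWTT-Distal 1 (1.51), GWTT-Distal 2 (1.75) or GS4T-Distal 2 (1.34), and Muc3 without GWTT-Distal 1 (2.21) or GS4T-Distal 2 (2.14).

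In proximal GS4T cells the same 5 genes were above the control mean, but 0 of 5 were called over a background of 9.61% of 15319 genes. The 2 control libraries differed widely. Muc2 was at 61.0 and 2672 normalized counts in GWTT-Proximal 1 and 2 and at 4519 and 11449 in GS4T, and Muc3 was at 2.07 and 922 against 1190 and 858. Muc4 was at 3.10 and 70.7 against 381 and 410 (4.53, SE 1.32, adjusted p = 0.0780, limma). Unadjusted p with the fold threshold gave 2 members, Muc4 and Muc13, among 2446 genes in all, and edgeR and DESeq2 called 0 members. Without GWTT-Proximal 1, the control with the lower mucins, the log2 differences were 2.46 for Muc4 and 1.57 for Muc13. Without GWTT-Proximal 2 they were 6.86 for Muc2, 8.37 for Muc3, 6.59 for Muc4 and 6.02 for Muc13.

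In GA3T cells 0 of 5 members were called in either segment, with backgrounds of 0.358% of 15346 genes proximally and 0% of 15414 genes distally. Distal values did not overlap for any of the 5. With 2 libraries a group this is a description only, and the share over all genes was not counted. Muc13 was at 1878 and 951 normalized counts against 152 and 296 (2.65, SE 0.44, adjusted p = 0.106), and Muc4 at 93.9 and 89.3 against 10.0 and 13.2 (2.89, SE 0.43, adjusted p = 0.0947, limma). Unadjusted p were under 0.05 for Muc2, Muc3, Muc4 and Muc13, which DESeq2 also called, and edgeR called 0. Over all 15414 genes, 1197 passed unadjusted p with the fold threshold, and DESeq2 called 776. In proximal GA3T cells all 5 groups overlapped with GWTT, and unadjusted p, edgeR and DESeq2 each gave 0. There the direction for Muc3 rests on GWTT-Proximal 1: its log2 difference of 3.32 turned to -0.81 without that library. Without GWTT-Proximal 2 the log2 differences were 5.71 for Muc2 and 7.44 for Muc3.

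GS4T and GA3T were not shown to differ in any of the 5 members. Over backgrounds of 0.0782% (proximal) and 2.12% (distal) of 15353 genes, 0 were called by limma and edgeR, and DESeq2 called Muc1 distally. Muc1 in distal cells was at 10.1 and 14.8 CPM in GS4T against 4.56 and 6.78 CPM in GA3T (1.12, 95% interval 0.39 to 1.86, adjusted p = 0.101, limma), the only unadjusted p under 0.05. For Muc2 the interval ran from -2.03 to 4.33 distally. The interactions with segment gave 0 of 5 members called for GS4T (background 0.0391% of 15353 genes) and for GA3T (0%) by limma, edgeR and DESeq2, with Muc1 in GS4T the only unadjusted p under 0.05 (-1.06). GWTT cells of the 2 segments also had 0 of 5 members called (1.34% of 15353 genes), with no unadjusted p under 0.05 and none by edgeR or DESeq2.

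Epithelial markers moved with the stromal mucins. The 10 markers, of which at most 1 was at 0 in a library, summed to 26.8 to 706 CPM in GWTT, 573 to 1410 CPM in GA3T and 928 to 2165 CPM in GS4T. Relative to Epcam, the epithelial adhesion molecule, Muc2 was 1.16 to 3.17 and Muc13 0.431 to 0.907 in all 12 stromal libraries, against a range of 3.12 to 229 CPM in Epcam itself. Muc4 per Epcam was 0.105 to 0.146 in the 4 GS4T libraries, 0.0374 to 0.111 in GA3T and 0.0275 to 0.0667 in GWTT. Muc1 did not follow the epithelial markers, with 6.54 CPM in GWTT-Proximal 1, where Epcam was at 3.12 CPM. The part of epithelial RNA in the stromal mucin differences was not tested.

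**Figure D3:**
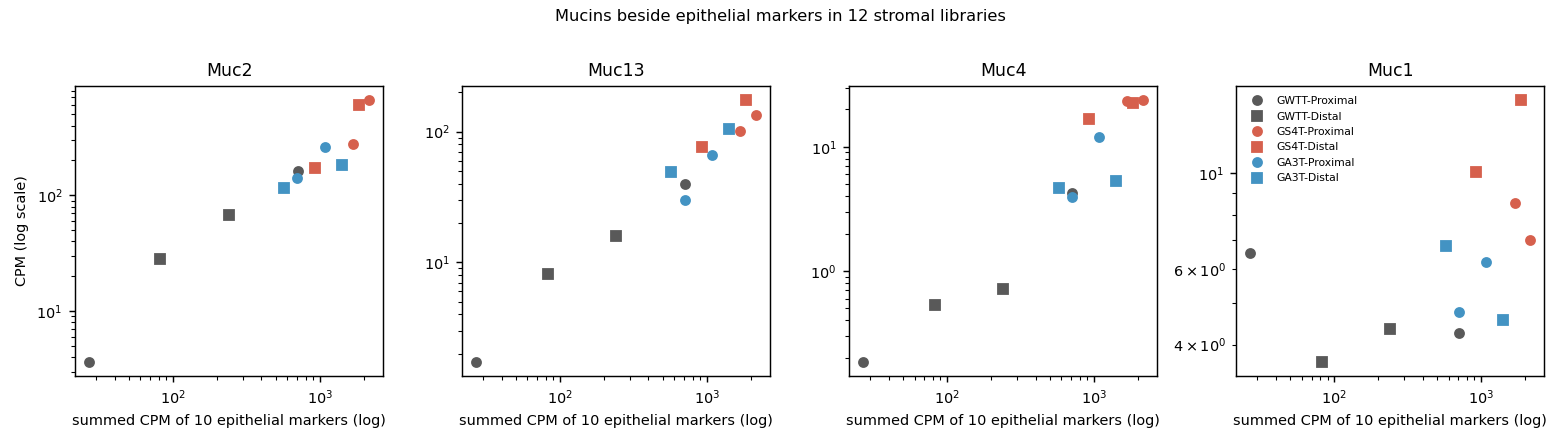
Muc2, Muc13, Muc4 and Muc1 (CPM, log scale) against the summed CPM of 10 epithelial markers (log scale) in the 12 stromal libraries; colour gives the genotype and shape the segment. Muc2 and Muc13 are lowest in GWTT-Proximal 1, which has the lowest marker sum (26.8 CPM), whereas Muc1 is at 6.54 CPM there, within the range of the other libraries.

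Between sorted cell types, control goblet cells exceeded control stromal cells in most members. Muc2 marks the goblet sort, so its difference of 8.82 proximally and 6.47 distally on the log2 scale is a description. Proximally 5 of 6 members were called over a background of 43.7% of 13062 genes: Muc2, Muc4 (8.56), Muc13 (7.37), Muc3 (6.47) and Muc20 (4.81). Distally 4 of 6 were called over 43.4%: Muc2, Muc4 (10.43), Muc13 (7.26) and Muc20 (5.47), while Muc3 (5.85, adjusted p = 0.0564, limma) was not. The median of all genes was shifted by 0.24 and 0.21 in these fits. Proximal Muc3 was not called by edgeR (3.35) or DESeq2 (3.35), nor without GWTM2-Proximal 1 or 2 (6.99 and 5.96), and distal Muc2 not without GWTT-Distal 1 (5.85). Muc1 passed in neither segment, although its groups did not overlap and differed in opposite directions. It was at 3.38 and 1.57 CPM in proximal goblet cells against 6.54 and 4.26 CPM in proximal stromal cells (-1.16, SE 0.70, adjusted p = 0.184, limma). In distal cells Muc1 was at 22.8 and 5.38 against 3.64 and 4.35 CPM (1.46, SE 0.70, adjusted p = 0.106, limma), and the difference was 2.49 without GWTM2-Distal 2.

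In organoids Muc1 and Muc13 were higher after 72 h of either cytokine, while Muc2 and the other 3 membrane mucins did not pass the test. Every Control-72h library matched or closely resembled a Control-12h library. Cytokine and time in culture may therefore not be told apart at 72 h, and the part of time was not tested. After 72 h of IL1, Muc1 was at 1567, 733 and 1135 normalized counts against 16.9, 148 and 115 in Control. Muc13 was at 66628, 36252 and 53138 against 10309, 13507 and 13571. Every treated library was above every control for both genes. Muc1 rose by 4.02 (SE 0.75, a 16.2-fold difference, adjusted p = 0.00658) and Muc13 by 2.03 (SE 0.26, 4.08-fold, adjusted p = 0.00295, limma). These 2 of 6 members were called over a background of 23.0% of 13023 genes, and edgeR and DESeq2 called the same 2 genes. They stayed called when any one library was left out.

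Muc2 at 72 h of IL1 was at 9702, 46715 and 31766 normalized counts against 46324, 44984 and 51066 (-0.96, SE 0.52, adjusted p = 0.175, limma). The groups overlapped through IL1-72h 2, and IL1-72h 1 had the lowest Muc2 of the 18 organoid libraries, 503 CPM. Muc3 was higher in all 3 treated libraries (23483, 14802 and 26909 against 5727, 14705 and 14116) but did not pass (0.99, SE 0.39, adjusted p = 0.0798, limma). That separation rests on 14802 against 14705, and in CPM the groups overlapped, with IL1-72h 2 (879) below Control-72h 2 (975) and Control-72h 4 (951). Muc4 (0.57) and Muc20 (0.22) overlapped between groups. The Muc2 share of the summed mucins, as CPM per kb, was 3.76%, 24.3% and 12.2% after IL1 and 33.8% to 50.1% in Control.

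After 72 h of IL17A, Muc1 was at 1322, 724 and 2263 normalized counts against 16.8, 147 and 114, and Muc13 at 64680, 29993 and 84021 against 10288, 13430 and 13544. Again all treated libraries were above all controls. Muc1 rose by 4.27 (SE 0.83, 19.3-fold, adjusted p = 0.0393) and Muc13 by 2.15 (SE 0.39, 4.43-fold, adjusted p = 0.0356, limma), 2 of 6 members over a background of 7.94% of 13073 genes. The calls were also made by edgeR and DESeq2. In the limma fit both were lost without Control-72h 2, Control-72h 4, IL17A-72h 1 or IL17A-72h 3, and Muc13 also without Control-72h 1, with values of 3.86 to 4.84 for Muc1 and 1.84 to 2.22 for Muc13 in those fits and adjusted p of 0.0573 to 0.171. With the replicate number as a block the values were 4.25 and 1.91 (adjusted p = 0.199 and 0.208, limma). All IL17A-72h libraries were male and Control-72h 2 and 4 female. With sex as a block, a setting chosen after seeing the data, neither gene was called. Muc2 was at 10276, 89141 and 33849 against 46230, 44727 and 50963, so IL17A libraries lay on both sides of the controls (-0.59, SE 0.70, adjusted p = 0.556, limma).

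At 12 h the same members were highest above the control without passing. Muc1 was at 276, 345 and 286 normalized counts after IL1 against 89.0, 17.8 and 119 (2.36, SE 0.65, adjusted p = 0.886), and at 265, 342 and 339 after IL17A against 93.5, 18.6 and 125 (2.35, SE 0.66, adjusted p = 0.778, limma). Muc13 was at 23535, 20585 and 20002 after IL1 against 14863, 10874 and 14146 (0.69, SE 0.15, adjusted p = 0.514, limma). After IL17A it was at 30425, 26780 and 27774 against 15604, 11395 and 14812 (1.03, SE 0.15, adjusted p = 0.143, limma). Neither gene overlapped between groups at 12 h, and Control-12h 2, with 19 reads, held the lowest Muc1. Of 6 members 0 were called for IL1 (background 0.0542% of 12913 genes) and for IL17A (0.0385% of 12977 genes). Unadjusted p with the fold threshold gave Muc1 for IL1 and Muc1 and Muc13 for IL17A, edgeR called 0 members in both, and DESeq2 called 0 for IL1 and Muc1 and Muc13 for IL17A. Over all genes unadjusted p gave 119 for IL1 and 140 for IL17A, and DESeq2 called 43 and 51. With the replicate number as a block, Muc1 was called for both (1.44 and 1.47), with no count over all genes beside it.

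**Figure D4:**
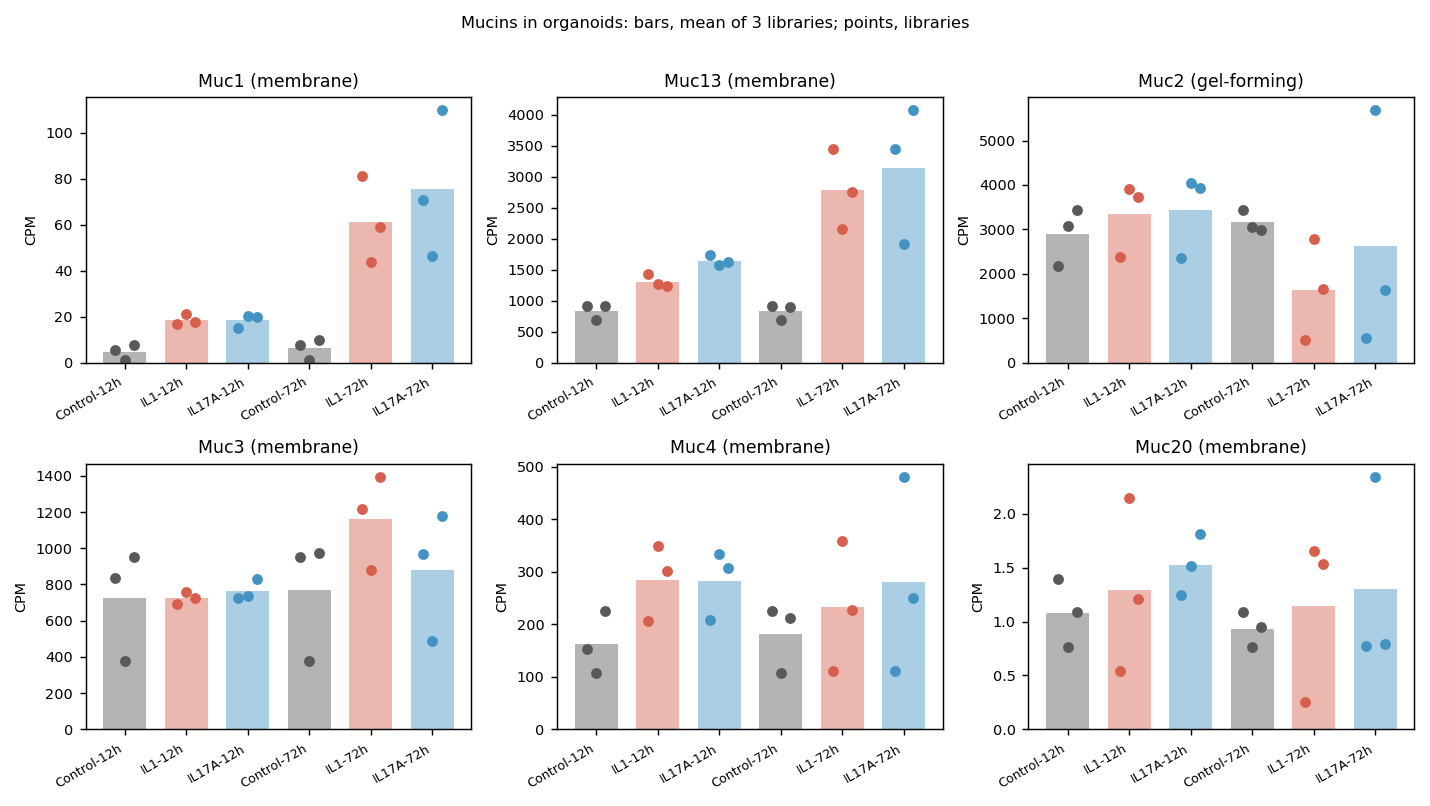
The mucins measured in organoids, in CPM; bars are means of 3 libraries, points are libraries, and grey, red and blue stand for Control, IL1 and IL17A at 12 h and 72 h. Muc1 and Muc13 are above the controls in every treated library, while Muc2, Muc4 and Muc20 overlap.

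Between IL1 and IL17A no mucin passed both thresholds. At 12 h 0 of 6 members were called (background 0% of 13221 genes) and at 72 h 0 of 6 (0.0151%), by limma, edgeR and DESeq2, and no unadjusted p was under 0.05. The difference at 72 h, IL1 minus IL17A, was -0.26 for Muc1 (95% interval -1.74 to 1.22) and -0.13 for Muc13 (-0.64 to 0.38) on the log2 CPM scale. At 12 h it was 0.01 for Muc1 (-1.47 to 1.499) and -0.33 for Muc13 (-0.85 to 0.18). Muc13 was nevertheless at 1427, 1264 and 1232 CPM after IL1 against 1739, 1579 and 1622 after IL17A at 12 h, without overlap and higher with IL17A in 3 of 3 same-numbered pairs. With these 6 libraries alone and the replicate number as a block, an alternative chosen after seeing the data, the Muc13 difference was -0.33 (95% interval -0.40 to -0.27, adjusted p = 1.59e-09, limma), which passed the p threshold but not that of the fold. In that fit 39 of 13221 genes were called, and the adjusted p of the other 5 members was 0.291 or more. The fit counts libraries 3 and 4 of each cytokine separately, although they were far closer than other replicates (chi-square per degree of freedom 3.03 and 3.32). Its interval may therefore be too narrow. Without the block the same 6 libraries gave an interval of -0.56 to -0.11 (adjusted p = 1, limma). Replicate 1 of either cytokine at 72 h was closer to its counterpart (chi-square per degree of freedom 8.15) than any 2 replicates of IL1 at 72 h were to each other (69.7 to 87.2). Replicate 3 was closer too (16.9), but replicate 2 was not (102) and differed in sex between the cytokines.

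Between the times, Muc13 rose further with IL1. The IL1 effect on Muc13 was larger at 72 h than at 12 h by 1.08 (SE 0.34, adjusted p = 0.0494, limma on log2 CPM), 1 of 6 members over a background of 10.1% of 13221 genes, where the median of all genes was shifted by -0.27. Muc13 was at 682 to 919 CPM in the controls, 1232 to 1427 CPM after 12 h and 2152 to 3456 CPM after 72 h. The call was lost with no filter on low values (adjusted p = 0.0523, limma) and in 10 of the 12 fits that leave out 1 library, at values of 0.91 to 1.22. For IL17A the same difference was 0.88 (SE 0.34, adjusted p = 0.1104, limma), with 0 of 6 members called over 0.446% of 13221 genes, edgeR calling 0 and DESeq2 calling Muc13, which also had the only unadjusted p under 0.05. Because 2 of the 3 control libraries are the same at both times, with each distinct control used once as one group the IL1 effect called Muc13 and Muc1 (1.68, adjusted p = 0.0336) and the IL17A effect Muc1 (1.96, adjusted p = 0.0238, limma). Muc2 showed no called change with time (-1.46 for IL1 and -1.11 for IL17A).

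Markers of other epithelial cells differed at 72 h. The 6 stem and transit cell markers summed to 59.7 to 278 CPM after IL1 and 68.6 to 878 CPM after IL17A, with 5 of 6 listed there, against 1343 to 1657 CPM in Control. The 9 absorptive colonocyte markers summed to 4920 to 11666 CPM after IL1 against 1921 to 4469 CPM in Control. After IL17A, with 8 of the 9 listed, they summed to 2791 to 10257 CPM, overlapping with Control. At 12 h, with 8 of the 9 absorptive markers listed, these sums overlapped with the control for both lists and both cytokines. Relative to Epcam, Muc13 was 1.35 to 1.58 after IL1 at 72 h, at least 1.14 after IL17A and 0.521 to 0.710 in Control. At 12 h it was 1.03 to 1.23 after IL1 and 1.32 to 1.43 after IL17A against 0.521 to 0.769. The parts of cell composition and of time in culture in the Muc1 and Muc13 differences were not tested.

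In the related lists, IL1 at 72 h called 7 higher and 2 lower of 30 genes of mucus partners and mucin assembly, among them Tgm3 (3.54), Gcnt1 (1.60) and the sulfate transporter Slc26a2 (1.55) higher and B3gnt6, an enzyme of core-3 O-glycans, lower (-2.58). The list's median was 0.22, against 0.00 over all genes, and 23.0% of all genes were called. Of 10 membrane mucin partners 4 were higher: Erbb3 (1.25), Ezr (1.18), Erbb2 (1.13) and Slc9a3r1 (1.07), the latter and Ezr linking membrane proteins to actin. IL17A at 72 h called Galnt3 (1.66), which starts O-glycans, of 31 and Ezr (1.04) of 10, where 7.94% of all genes were called. At 12 h 0 genes of either list were called for either cytokine. In distal GS4T cells 9 genes of mucin assembly were higher and 2 lower of 30, with Galnt3 (4.65), Fut2 (2.93) and Agr2 (2.93) higher and Clca1 (-3.08) and Klf4 (-1.37) lower. Of all genes, 14.0% were called there.

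**Figure D5:**
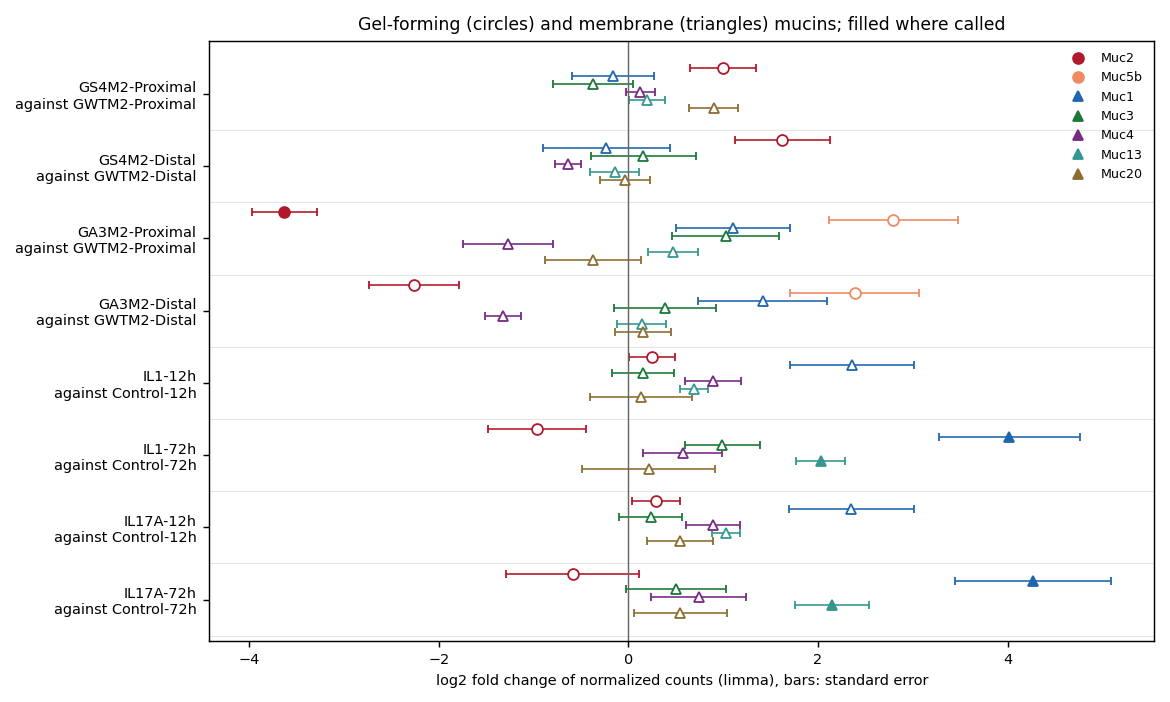
Log2 fold changes of normalized counts with standard errors for the mucins tested in the goblet and organoid comparisons with the control; circles are gel-forming and triangles membrane mucins, and filled symbols passed the test. Filled symbols are Muc2 in proximal GA3M2 cells and Muc1 and Muc13 after 72 h of either cytokine.

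Gel-forming and membrane mucins can be compared directly only through Muc2, since Muc5b and Muc19 were near the floor. In the 4 goblet comparisons with the control, Muc2 was the member with the largest absolute log2 difference apart from Muc5b in distal GA3M2 cells, where Muc5b was at 2.39 and Muc2 at -2.26. In the 4 organoid comparisons it was Muc1 each time. As a description, the genes most like Muc2 across the 12 goblet libraries were Yif1b (Pearson's r 0.964), B3gnt9 (0.958), Zan (0.935), Grin2d (0.926) and Pnpla6 (0.926), among 10177 genes with a mean of at least 5 CPM, and r between Muc2 and the membrane mucins was -0.61 for Muc13, -0.60 for Muc1, -0.49 for Muc3 and 0.46 for Muc4. Across the 18 organoid libraries, of which 16 are distinct, Muc1 was most like P4hb (0.966), Pglyrp1 (0.965), Fndc3b (0.964), Gfpt1 (0.963) and Anxa3 (0.957) among 9959 genes, and Muc13 like Mpzl3 (0.974), Ly6d (0.969), Fndc3b (0.968), Rab11a (0.964) and Eps8l3 (0.964). Muc1 and Muc13 had r = 0.935. These values share libraries, depth and the grouping by genotype or treatment.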

How the data were processed

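Sorted goblet cells, sorted stromal cells and organoids were sequenced with a SMARTER mRNA kit. The deposited signal values are counts per gene that the authors normalized with DESeq2 1.28.1 size factors within each table, after alignment to mm10 with STAR 2.5.3; the counting program and strand setting are not given in the sources used here. Each value was a whole multiple of 1 step, and 100% of values were within 0.1 of whole reads, so reads were recovered for CPM, edgeR 4.0.16 and DESeq2 1.42.0. The unnamed entries of the GS4M2 tables, 20.9% to 28.2% of their reads, were left out. The main test was limma 3.58.1 (R 4.3.3) with a mean-variance trend on log2(normalized count + 1), at a mean of at least 10; fold changes are on that scale and understate low genes. Between tables log2(CPM + 0.1) with a mean of at least 0.5 CPM was used. P-values were adjusted over all genes tested. Groups came from the labels, and the columns of the GS4M2 tables from their deposited names, which a heading elsewhere in the study's materials reverses for the proximal table. Whether the replicate numbers of the labels pair IL1 with IL17A libraries is not settled. Same-numbered deviations from the group means correlated at 0.528 to 0.833 over 3 pairs at 12 h, where libraries 3 and 4 also correlated crosswise (0.524 and 0.533). At 72 h they correlated at 0.427 to 0.723 over 3 pairs, but replicate 2 was female with IL1 and male with IL17A. The members and gene lists were chosen with earlier results of these data known. All members measured were named, list genes where called or among the 4 largest of their list, and for likeness the 5 highest correlations. Intervals and floors cover counting error or library spread only.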

Additional observations from a re-analysis of the deposited data

Results flagged for a closer look

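One difference between times was marked for a closer look by a test of the difference itself. The IL1 effect on Muc13 was larger at 72 h than at 12 h by 1.08 on the log2 CPM scale (SE 0.34, adjusted p = 0.0494, limma). All 3 treated libraries were above all 3 controls at both times, and Control libraries 2 and 4 of 12 h are the same reads as 1 and 4 of 72 h. No group held 4 or more samples, so no single library could be tested as lying apart.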

How the results depend on the processing

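Counts of called members are given for the settings that moved them by over 1.5 times; the cause was not tested. In the next sentences the number after a slash is the count over all genes. With DESeq2 on recovered reads the counts were 2/240 for GA3M2-Distal, 2/431 for GA3M2-Proximal, 4/776 for GA3T-Distal, 1/148 for GS4M2-Distal and 2/51 for IL17A-12h against their controls. They were 2/432 for GS4M2-Proximal against GA3M2-Proximal, 1/774 for GS4T-Distal against GA3T-Distal, 3/417 for GWTM2-Proximal against GWTM2-Distal and 1/1158 for the IL17A effect over time. At an unadjusted p under 0.05 they were 3/539 (GA3M2-Distal), 3/911 (GA3M2-Proximal), 4/1197 (GA3T-Distal), 1/353 (GS4M2-Distal), 1/567 (GS4M2-Proximal), 2/2446 (GS4T-Proximal), 1/119 (IL1-12h) and 2/140 (IL17A-12h). For GA3M2-Proximal the count was 0 at a pseudocount of 0.1 (Muc2 adjusted p = 0.0508, limma) and 0 with upper-quartile rescaling (0.0576), and for GS4T-Proximal it was 1 at a pseudocount of 10. With no filter the IL1 effect over time had 0.

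With the replicate block the counts were 4 (GA3M2-Proximal), 2 (GS4T-Proximal), 1 (IL1-12h), 1 (IL17A-12h), 0 (IL17A-72h), 3 (GS4M2-Proximal against GA3M2-Proximal), 2 (GWTM2-Proximal against GWTM2-Distal) and 1 (IL17A effect over time). No count over all genes accompanies these, so they stand without a background share and are no result about the members. Against the control each comparison has 2 same-numbered pairs, too few to show that the numbers pair the samples: deviations correlated at -0.0573 to 0.302 in goblet cells, 0.0965 to 0.191 in stromal cells, 0.619 to 0.637 in organoids at 12 h and -0.186 to 0.2 at 72 h. At 12 h IL1 and IL17A replicate 3 correlated as highly with Control replicate 4 (0.625 and 0.642). Between IL1 and IL17A the block, in the fit of all organoid libraries or of the 2 groups alone, left the count at 0 at both times. Of the settings chosen after seeing the data, library sex as a block gave 1 for IL17A-12h and 0 for IL17A-72h, averaging near-identical libraries gave 0 for IL17A-72h, and using each distinct control once gave 2 for the IL1 and 1 for the IL17A effect over time.

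Leaving out 1 library gave 0 to 3 (GA3M2-Distal), 0 to 2 (GA3M2-Proximal), 0 to 2 (GA3T-Proximal), 0 to 1 (GS4M2-Distal), 2 to 5 (GS4T-Distal), 0 to 4 (GS4T-Proximal), 0 to 2 (IL17A-72h), 0 to 3 (GS4M2-Proximal against GA3M2-Proximal), 0 to 1 (GS4M2-Distal against GA3M2-Distal), 0 to 2 (GWTM2-Proximal against GWTM2-Distal), 0 to 1 (GWTT-Proximal against GWTT-Distal), 0 to 1 (IL1 effect) and 0 to 1 (IL17A effect). In these fits a lone library is assumed to vary like the other groups. No count over all genes accompanies them, so they describe dependence on single libraries and are no result about the members. Over all settings 290 counts were unchanged or close and 68 moved.

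Signs turned only in stromal values that failed the test. Without GWTT-Proximal 1, Muc3 was at -0.81 for GA3T-Proximal against GWTT-Proximal. For GWTT-Proximal against GWTT-Distal Muc3 was at 1.23 with edgeR, 1.23 with DESeq2 and 2.31 without GWTT-Proximal 1. In the same 3 settings the difference of the GS4T effect between segments was -0.51, -0.51 and -1.46 for Muc2 and -1.65, -1.65 and -2.60 for Muc3, and that of the GA3T effect was -0.32, -0.32 and -1.47 for Muc2 and -1.66, -1.65 and -2.54 for Muc3. Without GWTT-Proximal 2 these values were 7.44 and -5.66 for Muc3 in the first 2 comparisons, 3.98 and 5.37 for Muc2 and Muc3 in the GS4T effect, and 3.97 and 5.43 in the GA3T effect. Low read counts limit Muc5b, Muc19 and Muc20 and also single libraries of other members, such as GWTT-Proximal 1 with 2 reads of Muc3 and 3 of Muc4, and Control-12h 2 with 19 of Muc1.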
